A study of Mus musculus with 26 samples.

Results

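Endosomal sorting genes were taken as every gene of the deposited table whose symbol starts with Vps, Snx or Chmp followed by a digit. There were 66 such genes among 13765, of which 30 were Vps, 27 Snx and 9 Chmp genes. They were followed in double positive (DP) cells, T-cell precursors that carry both CD4 and CD8 and here lack a surface T-cell receptor, from the aortic arch, the adipose tissue of the mediastinum and the thymus.

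An endosome sorts the membrane proteins that a cell has taken up. Proteins tagged with ubiquitin are drawn into inward buds by the ESCRT complexes and are degraded in the lysosome, whereas retromer and the sorting nexins return others to the surface or to the Golgi in tubules. Tethers such as HOPS, CORVET and GARP then bring vesicles to the right membrane, and in thymocytes these routes handle receptors such as CD4, CD8 and the T-cell receptor.

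All cells came from female C57BL/6J mice aged 8 weeks, and no group carried a mutation or a treatment. The 3 groups were DP cells of the aortic arch, of mediastinal adipose tissue and of thymus, each as 4 pools of 5 mice (n = 4 pools per tissue throughout). Sorting took live CD4 and CD8b positive, receptor negative cells in lots of 400, and a library used the lysate of 200. Arch and adipose tissue were digested with enzymes, which is not stated for thymus, so digestion and tissue cannot be told apart.

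The 9 arch, 8 adipose and 9 thymus libraries had been combined per pool before deposit, with 1 library in adipose pool 2 and 2 or 3 in each other pool. The 12 columns held 11577253 to 34599519 recovered reads and 9091 to 11894 genes with a read. The columns with the fewest reads per library were arch pools 2 and 4 and thymus pool 3. Markers of the sorted cells were present in every pool, with Cd4 at 5191 to 10233 normalised reads in arch, 8575 to 19714 in adipose tissue and 16360 to 22768 in thymus. The 11 DP markers summed to 6628 to 7821 CPM in arch, 5218 to 10708 in adipose tissue and 17566 to 20723 in thymus, so the sorted cells of both tissues outside the thymus had less of them. Markers of 10 other cell types, without the most abundant gene of each, summed to 342, 1392, 282 and 3925 CPM in arch pools 1 to 4, to 133 to 717 in adipose pools and to 163 to 369 in thymus pools. None of 6 neutrophil markers was in the table, and thus they add 0 to these sums. Arch pool 2 was high in smooth muscle and macrophage markers, and arch pool 4 in fibroblast markers. With the most abundant gene included, adipose pool 1 was high in B cell markers, at 1232 CPM (218 without Cd74), against 27.4 to 182 in the other adipose pools. In bulk samples, fewer cells that express a gene and less RNA of it per cell cannot be told apart.

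Of the 66 members, 59 had at least 100 normalised reads in at least 4 pools and were tested. The other 7 were Snx8, Snx9, Snx11, Snx21, Snx22, Snx25 and Vps37d, and their highest value was 474 normalised reads (Snx11 in arch pool 4). Changes are differences of log2(normalised read count + 20) with their standard error, and a gene was called where limma's adjusted p over all 9106 tested genes was under 0.05. In arch against thymus 4 of 59 members (6.78%) were called, 2 higher (Snx18 and Vps37b) and 2 lower (Vps53 and Chmp1a), against 6.57% of all genes tested, 3.99% higher and 2.58% lower. In adipose tissue against thymus 2 of 59 (3.39%) were called, both higher (Snx18 and Vps37b), against 2.84% of all genes, 2.17% higher and 0.67% lower. In arch against adipose tissue limma called 0 of 59 members, against 0.176% of all genes, 0.0988% higher and 0.0769% lower. The smallest adjusted p there was 0.250. The share of members that limma called was thus near that of all genes in each comparison. In arch against adipose tissue edgeR also called 0 members (8 of 9106 genes) and DESeq2 called 1 (Snx27), against 289 of 10999 genes. DESeq2 called 7 of 66 members in arch against thymus, against 1270 of 10651 genes. In adipose tissue against thymus it called 3 of 66, against 710 of 10861 genes. DESeq2 was fitted to all 13765 genes and the gene totals given for it are smaller, while 66 counts every member. Its shares of members and of genes are thus not on the same base. Both comparisons with thymus use the same 4 thymus pools.

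At an unadjusted p under 0.05, members numbered 18 in arch against thymus (30.5%, against 22.7% of all genes), 8 in adipose tissue against thymus (13.6%, against 12.8%) and 7 in arch against adipose tissue (11.9%, against 10.5%). All 7 of the last were lower in arch, but all genes at this threshold were not counted by direction, so this cannot be set against them. The median change of the members was -0.51 in arch against thymus, where that of all tested genes was -0.20. It was 0.04 in adipose tissue against thymus (all genes -0.01) and -0.36 in arch against adipose tissue (all genes -0.17). Pool values did not overlap for 8 members in arch against thymus (13.6%, against 13.2% of all genes), 6 in adipose tissue against thymus (10.2%, against 10.5%) and 2 in arch against adipose tissue (3.39%, against 5.35%).

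**Figure D1:**
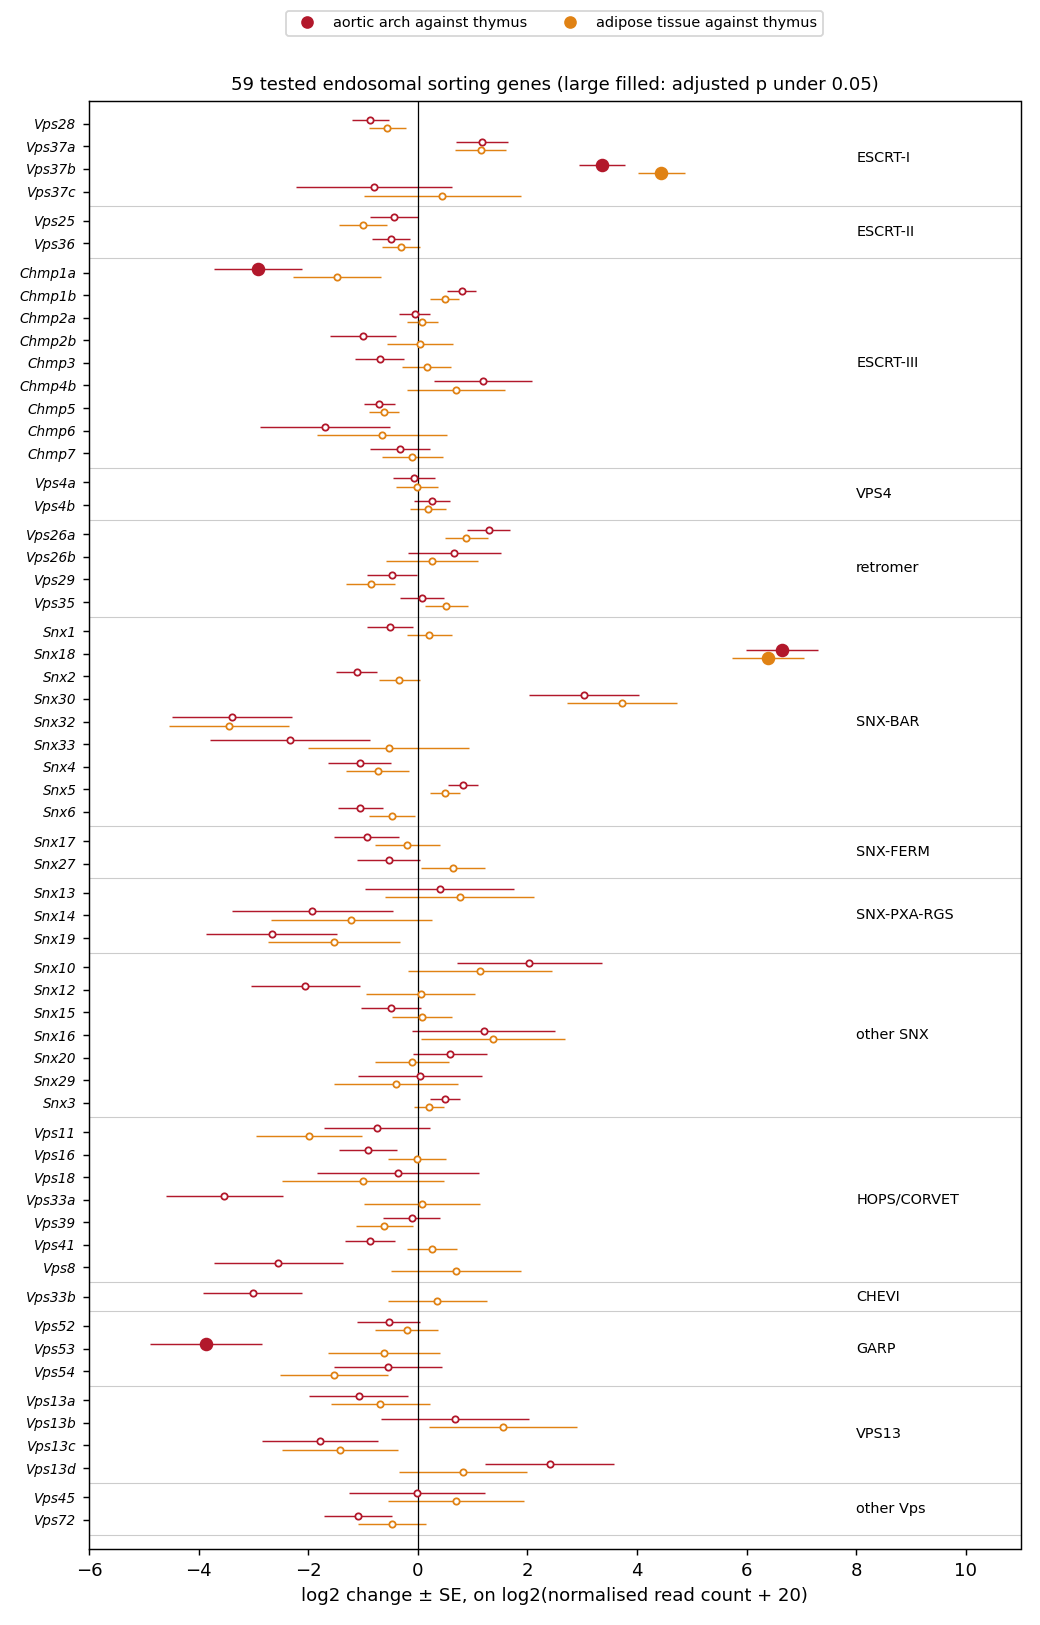
Change of each of the 59 tested members in log2 units with its standard error, grouped by complex or domain, in aortic arch against thymus (red) and adipose tissue against thymus (orange). Large filled points mark adjusted p under 0.05: Snx18 and Vps37b lie far to the right in both comparisons, and Vps53 and Chmp1a to the left in arch.

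The SNX-BAR proteins bend membranes, and Snx18, the member with the largest change, encodes one that works with dynamin at endocytic and recycling membranes and in the formation of autophagosomes. The gene lies at chr13:113592179-113618564 on the minus strand (GRCm38, GENCODE M21) and overlaps no other annotated gene. Its promoter is shown because it is the called member with the largest change, and because Vps37b, the other gene called at both sites, has no entry in the RefSeq promoter table used. Beside it are printed the promoters of Vps26a and Vps33a, chosen after their values were seen, since both genes lay just outside the threshold in arch and hold a lysosomal gene motif. Each runs from 250 bases before the start to 50 after it, 5′ to 3′ in the direction of the gene, from RefSeq on GRCm38.p6. Capitals mark matches to the motifs searched: the E-box CACGTG, the CLEAR core TCACGTG that lysosomal gene promoters share, and the cAMP response element core TGACG, on either strand, and these overlap where they stand together.
Snx18 promoter, chr13:113618515-113618814, minus strand: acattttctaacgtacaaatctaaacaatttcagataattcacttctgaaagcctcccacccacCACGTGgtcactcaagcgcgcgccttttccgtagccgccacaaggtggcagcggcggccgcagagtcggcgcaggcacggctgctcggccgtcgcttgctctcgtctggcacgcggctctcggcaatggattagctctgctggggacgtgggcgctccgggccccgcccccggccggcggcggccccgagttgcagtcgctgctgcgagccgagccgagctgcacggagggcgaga
Vps26a promoter, chr10:62486756-62487055, minus strand: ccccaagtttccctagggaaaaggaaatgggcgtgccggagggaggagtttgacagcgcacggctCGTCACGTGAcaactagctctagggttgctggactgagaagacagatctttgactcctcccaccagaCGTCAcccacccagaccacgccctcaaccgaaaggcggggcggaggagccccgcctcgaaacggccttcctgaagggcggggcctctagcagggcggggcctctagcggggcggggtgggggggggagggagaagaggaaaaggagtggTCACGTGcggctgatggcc
Vps33a promoter, chr5:123572966-123573265, minus strand: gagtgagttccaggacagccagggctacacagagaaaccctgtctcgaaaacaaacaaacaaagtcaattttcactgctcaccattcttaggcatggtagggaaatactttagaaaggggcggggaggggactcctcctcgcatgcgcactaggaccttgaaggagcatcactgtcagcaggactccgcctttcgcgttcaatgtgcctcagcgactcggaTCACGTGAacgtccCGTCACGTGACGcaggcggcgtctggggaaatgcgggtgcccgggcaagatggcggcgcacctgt

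The Snx18 promoter held 1 E-box, which begins at position -186 from the start, and no match to the other motifs. The Vps26a and Vps33a promoters each held the CLEAR core at 2 places. An entry was found for 40 of the 59 tested members, with 49 promoters in all. The CLEAR core was in 4 of these 49 promoters and in 3.77% of all 32851 promoters of the same length. The 4 include overlapping windows of Vps26a, and by gene they are 3 of 40 (Vps16, Vps26a and Vps33a). The E-box, a motif added after the Snx18 promoter was read, was in 6 of 49 promoters (5 of 40 genes) and in 7.15% of all promoters. The cAMP element core was in 19 of 49 (17 of 40 genes) and in 20.8% of all promoters. The full cAMP element TGACGTCA was in 1 promoter (Chmp2a; 1.79% of all), the AP-1 site TGANTCA in 4 (7.81% of all) and the heat shock element GAANNTTC in 3 (7.86% of all). The promoters of Vps53 and Chmp1a held none of the 6 motifs. A match says only that these letters stand in this window.

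Snx18 had 7901, 8337, 9349 and 8358 normalised reads in arch pools 1 to 4 and 11322, 7141, 6162 and 5045 in adipose pools, against 0.566 (1 read), 265.5, 17.5 and 212 in thymus pools. All 8 pools from outside the thymus were high and none came near a thymus pool, and the arch pools lay close together. Thymus pools 1 and 3 lay below the level required for testing. Snx18 thus entered the test through the tissues where it was high. Means were 8486 ± 612 in arch and 7417 ± 2740 in adipose tissue, against 124 ± 135 in thymus (SD, n = 4 each), ratios of 68.5 and 59.9. On the log2 scale, which averages the pools near 0 as well, Snx18 rose by 6.65 ± 0.65 in arch (limma adjusted p = 2.84e-06) and by 6.39 ± 0.65 in adipose tissue (limma adjusted p = 5.45e-06). Arch and adipose tissue differed by 0.26 ± 0.65 (limma adjusted p = 0.919), an amount smaller than its error. It stayed called in 22 of 22 alternatives for each of the comparisons with thymus, with changes of 5.97 to 7.35 in arch and 5.49 to 7.09 in adipose tissue. Without thymus pool 1 the changes were 5.97 and 5.71, and without thymus pool 2 they were 7.24 and 6.98. Snx18 had 7901 and 9349 normalised reads in arch pools 1 and 3, which held 342 and 282 CPM of other cell markers, and 8337 and 8358 in arch pools 2 and 4, which held 1392 and 3925 CPM. Adipose pools 1 to 4 held 717, 396, 133 and 252 CPM of these markers, beside 11322, 7141, 6162 and 5045 normalised reads of Snx18. The part of other cells in its level was not tested.

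Snx18 has a pair of close relatives, Snx9 and Snx33. Snx9 was not tested, with at most 186 normalised reads in any pool. Snx33 had 368, 0, 1.62 and 4.66 in arch pools and 490, 1204, 0.689 and 27.0 in adipose pools, against 385, 3.74, 817 and 311 in thymus pools. These values were scattered within every tissue, and the changes of -2.33 ± 1.47 in arch and -0.53 ± 1.47 in adipose tissue were not called (limma adjusted p = 0.364 and 0.939). Taken per kilobase of exon, Snx18 made up 94.9% to just under 100% of the summed level of the 3 relatives in arch pools and 83.9% to 99.4% in adipose pools. In thymus pools it made up 0.127%, 98.4%, 1.84% and 37.4%, a spread in which 2 pools held almost only Snx33. Per kilobase Snx18 ranked 8 among the 66 members in arch and 7 in adipose tissue, and 54 in thymus.

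Snx30, another SNX-BAR gene, whose product recycles cargo from endosomes together with SNX4, was low everywhere and lowest in thymus. It had 579, 124, 313 and 23.3 normalised reads in arch pools and 349, 463, 192 and 205 in adipose pools, against 5.09, 0.748, 0 and 6.60 in thymus pools. Every pool from outside the thymus lay above every thymus pool. Because no thymus pool reached 100, Snx30 entered the test through the tissues where it was high. Its changes of 3.03 ± 1.00 in arch and 3.73 ± 1.00 in adipose tissue fell just outside the threshold (limma adjusted p = 0.0780 and 0.0518), and DESeq2 called both.

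The remaining SNX-BAR genes include the partners of retromer. SNX1 or SNX2 pairs with SNX5, SNX6 or SNX32, and the pairs bind cargo and form tubules. Snx5 had 6530, 5935, 6192 and 5627 normalised reads in arch pools and 3802, 4313, 6872 and 4665 in adipose pools, against 3765, 3682, 4307 and 2250 in thymus pools. All arch pools lay above all thymus pools, while adipose and thymus pools overlapped. The change of 0.83 ± 0.27 in arch missed the threshold (limma adjusted p = 0.0760), and DESeq2 called it. Snx6 differed the other way, by -1.05 ± 0.42 (limma adjusted p = 0.139), with means of 1842 ± 805 in arch and 2676 ± 1072 in adipose tissue, against 3770 ± 1548 in thymus (SD, n = 4).

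Snx32 had 187, 0, 4.85 and 0 normalised reads in arch pools and 8.72, 0, 0 and 134 in adipose pools, against 372, 137, 932 and 411 in thymus pools. Arch pool 1 lay inside the thymus range. Adipose pools did not overlap that range, but adipose pool 4, at 134, lay just below the lowest thymus pool, at 137. The changes were -3.39 ± 1.10 in arch and -3.45 ± 1.10 in adipose tissue (limma adjusted p = 0.0715 and 0.117). Snx32 overlaps Cfl1, an actin severing gene on the other strand with 38036 to 77048 normalised reads, and use of strand in the counting is not given, so Snx32 values are uncertain. Of the summed level per kilobase of Snx5, Snx6 and Snx32, Snx5 made up 61.4% to 82.0% in arch pools and 42.6% to 64.4% in adipose pools, against 31.8% to 49.3% in thymus pools. The sum of the 3 genes was 7961 ± 1046 normalised reads in arch and 7625 ± 1756 in adipose tissue, against 7734 ± 1825 in thymus (SD, n = 4), so the sums differed by less than the spread between pools.

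Snx2 had 963, 2469, 2323 and 980 normalised reads in arch pools and 2157, 3600, 2518 and 2462 in adipose pools, against 2526, 3406, 3905 and 3680 in thymus pools. Every arch pool lay below every thymus pool. The change was -1.12 ± 0.38 in arch and -0.34 ± 0.38 in adipose tissue (limma adjusted p = 0.0844 and 0.811). Snx1, the alternative partner, differed by -0.51 ± 0.42 in arch and 0.21 ± 0.42 in adipose tissue (limma adjusted p = 0.502 and 0.906), and Snx4, which recycles the transferrin receptor, by -1.06 ± 0.57 and -0.73 ± 0.57 (limma adjusted p = 0.281 and 0.681). Of the 9 SNX-BAR genes tested, limma called Snx18 higher in both comparisons with thymus and none of the other 8. Of all genes, limma called 3.99% higher in arch and 2.17% higher in adipose tissue. Among the other 8, DESeq2 called Snx30 in both and Snx5 in arch.

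**Figure D2:**
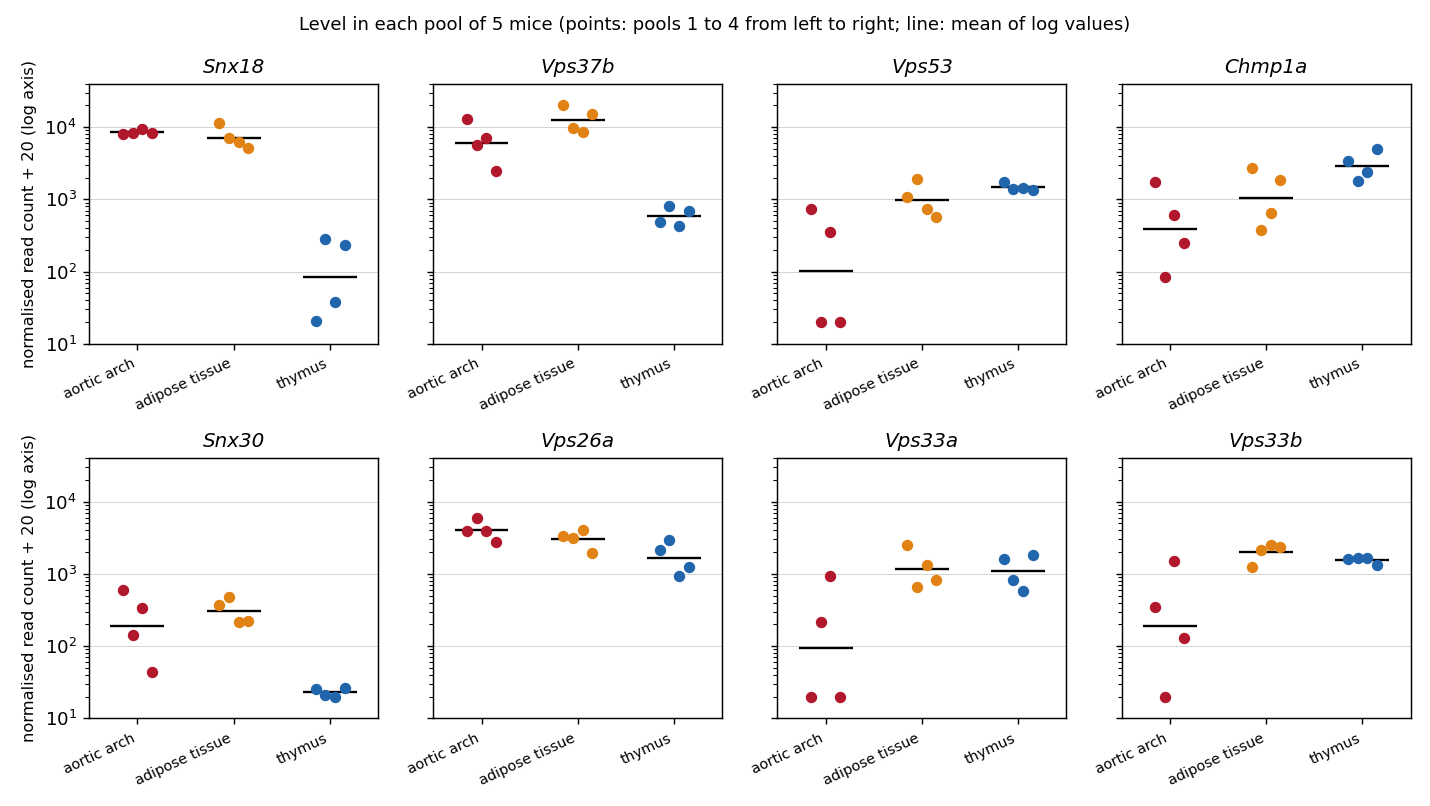
Level in each pool (normalised read count + 20, log axis) of 8 members in aortic arch, adipose tissue and thymus, with the mean of the log values as a line. Snx18 and Vps37b are high in all 8 pools from outside the thymus; Vps53, Vps33a and Vps33b each have at least 1 arch pool without a read.

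ESCRT-I receives ubiquitinated cargo and holds 1 of 4 interchangeable VPS37 subunits beside TSG101, VPS28 and an adaptor. Vps37b, the gene of 1 of these subunits, lies at chr5:124004641-124032270 on the minus strand. It had 12776, 5552, 7103 and 2467 normalised reads in arch pools and 20269, 9798, 8591 and 14940 in adipose pools, against 469, 793, 405 and 660 in thymus pools. The lowest pool from outside the thymus, arch pool 4, still held more than the highest thymus pool.

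Means of Vps37b were 6975 ± 4321 in arch and 13400 ± 5343 in adipose tissue, against 582 ± 178 in thymus (SD, n = 4), ratios of 11.99 and 23.0. The gene rose by 3.36 ± 0.42 in arch (limma adjusted p = 4.76e-05) and by 4.44 ± 0.42 in adipose tissue (limma adjusted p = 3.05e-06), and stayed called in 22 of 22 alternatives for each, with changes of 2.91 to 3.88 and 4.13 to 4.63. Arch lay below adipose tissue by a change of -1.09 ± 0.42, which was not called (limma adjusted p = 0.419). Vps37b was higher in arch pools 1 and 3, with fewer markers of other cells, than in arch pools 2 and 4. Adipose tissue ran the other way. There pool 1 had the most such markers (717 CPM) and the highest Vps37b, and pool 3 the fewest (133 CPM) and the lowest Vps37b. The part of other cells in these levels was not tested. Vps37b overlaps Hip1r on the other strand, but Hip1r held at most 236 normalised reads in arch and 369 in adipose pools and none in thymus.

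Of the paralogues, Vps37a had 1810, 3639, 2904 and 1810 normalised reads in arch pools and 2149, 2444, 2832 and 2188 in adipose pools, against 2553, 840, 434 and 1371 in thymus pools. Its changes of 1.17 ± 0.47 and 1.15 ± 0.47 were not called (limma adjusted p = 0.143 and 0.282), and thymus pool 1 lay among the pools of the other tissues. Vps37c was scattered in all tissues, from 0 to 1093 in arch, 0 to 837 in adipose tissue and 35.9 to 743 in thymus. Vps37d had at most 21.8 in any pool.

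Per kilobase, Vps37b made up 74.2% to 86.9% of the summed VPS37 level in arch pools and 80.4% to 92.1% in adipose pools, against 27.8%, 66.2%, 32.0% and 32.6% in thymus pools. The groups did not overlap. The sum of the 4 genes was 9853 ± 4650 normalised reads in arch and 16412 ± 5263 in adipose tissue, against 2263 ± 805 in thymus (SD, n = 4). Per kilobase Vps37b ranked 4 among the members in arch and 2 in adipose tissue, and 34 in thymus.

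The constant subunits of ESCRT-I were not called. Vps28 had 3298 to 4940 normalised reads in arch pools and 2376 to 8904 in adipose pools, against 5734 to 10244 in thymus pools, with changes of -0.87 ± 0.34 and -0.55 ± 0.34 (limma adjusted p = 0.128 and 0.549). Tsg101, the ubiquitin binding subunit and no member by its symbol, averaged 3883 ± 1035 in arch and 6061 ± 803 in adipose tissue, against 5381 ± 701 in thymus (SD, n = 4; limma adjusted p = 0.251 and 0.868).

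**Figure D3:**
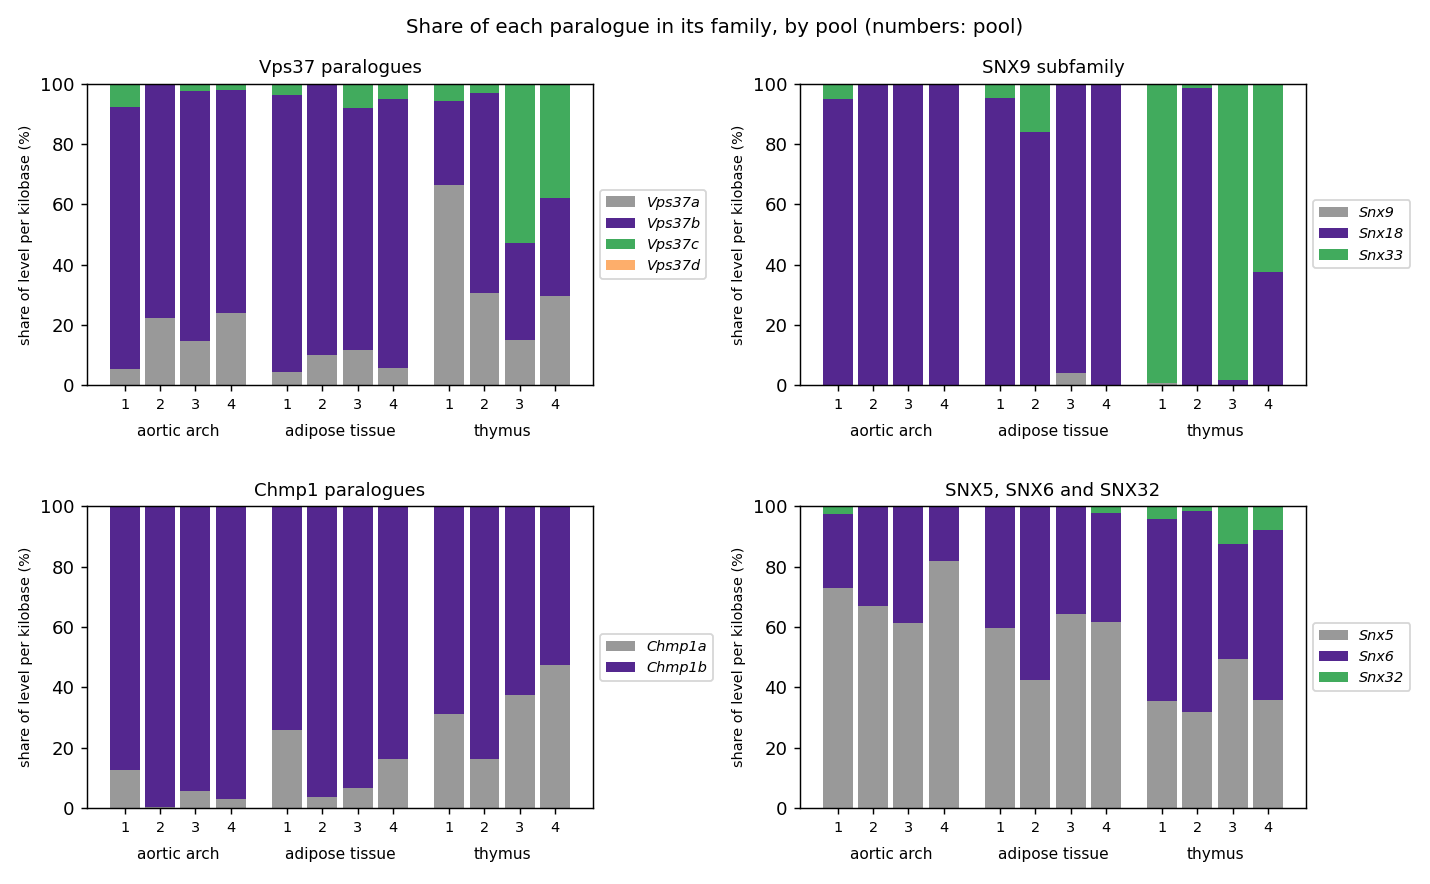
Share of each paralogue in the summed level per kilobase of exon of its family, by pool, for aortic arch, adipose tissue and thymus. Vps37b makes up 74.2% to 92.1% outside the thymus, against 27.8% to 66.2% in thymus pools, and Snx18 at least 83.9% outside the thymus.

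ESCRT-II links ESCRT-I to the filaments of ESCRT-III. Vps25 and Vps36 were not called. Vps25 had 1101 to 2405 normalised reads in adipose pools, against 2456 to 4990 in thymus pools. These ranges did not overlap, with a change of -0.99 ± 0.44 (limma adjusted p = 0.343).

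ESCRT-III subunits, the CHMP proteins, polymerise at the bud neck and cut it. Chmp1a encodes a late acting subunit that recruits the ATPase VPS4, and lies at chr8:123204264-123212763 on the minus strand. It had 1727, 64.7, 590 and 230 normalised reads in arch pools and 2672, 357, 622 and 1839 in adipose pools, against 3383, 1755, 2403 and 4953 in thymus pools. All arch pools lay below all thymus pools, arch pool 1 by very little, and adipose pools ran across the gap.

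Chmp1a fell by 2.91 in arch (SE 0.80, limma adjusted p = 0.0359) and differed by -1.48 ± 0.80 in adipose tissue (limma adjusted p = 0.479). The call in arch held in 12 of 22 alternatives, among them the fits without 1 adipose pool, in which the change stays at -2.91 by design. It was lost with edgeR, with DESeq2, without the filter on low values, without the 3 columns of lowest depth per library, without arch pool 2 or 4 and without any 1 thymus pool, with changes of -3.64 to -1.59 over all alternatives. The lowest values were in arch pools 2 and 4, which also had the most markers of other cells and the fewest reads among arch pools. The part of these in the change was not tested.

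The paralogue Chmp1b had 9340, 11299, 7630 and 6065 normalised reads in arch pools and 5881, 6983, 6801 and 7366 in adipose pools, against 5758, 6976, 3095 and 4257 in thymus pools. Arch and thymus pools overlapped, and the change of 0.80 ± 0.27 missed the threshold (limma adjusted p = 0.0850). DESeq2 called it. Chmp1b lies within Gnal on the same strand, which held 58.6 to 1735 normalised reads. Of the summed CHMP1 level per kilobase Chmp1b made up 87.5% to 99.6% in arch pools and 74.0% to 96.2% in adipose pools, against 52.7% to 83.7% in thymus pools. The summed normalised reads of both genes were 9236 ± 2419 in arch and 8130 ± 905 in adipose tissue, against 8145 ± 1777 in thymus (SD, n = 4), a difference smaller than the spread between pools.

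Among the other CHMP genes, Chmp2a, a core filament subunit, was the steadiest, with changes of -0.06 ± 0.28 in arch and 0.08 ± 0.28 in adipose tissue (limma adjusted p = 0.929 and 0.956). Chmp5, which binds the VPS4 regulator LIP5 and whose loss in mouse thymocytes impairs their positive selection, had 2519 to 4484 normalised reads in arch pools and 3262 to 3861 in adipose pools, against 4276 to 7766 in thymus pools. Adipose and thymus pools did not overlap, and the changes were -0.70 ± 0.28 in arch and -0.62 ± 0.28 in adipose tissue (limma adjusted p = 0.143 and 0.363), with a DESeq2 call in arch. Of the 9 CHMP genes tested, limma called 1 lower in arch, against 2.58% of all genes lower there. In adipose tissue limma, edgeR and DESeq2 called 0 of the 9, where limma called 2.84% of all genes. There 1 of the 9 had an unadjusted p under 0.05, against 12.8% of all genes. The median change was -0.69 in arch and 0.04 in adipose tissue. The VPS4 ATPases, which take the filaments apart, differed by -0.08 ± 0.38 (Vps4a) and 0.26 ± 0.33 (Vps4b) in arch and by -0.01 ± 0.38 and 0.18 ± 0.33 in adipose tissue, with limma adjusted p of 0.684 or more.

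Retromer returns cargo from endosomes through its trimer of VPS26, VPS29 and VPS35. Limma called none of its 4 genes. Vps26a had 3887, 5942, 3940 and 2732 normalised reads in arch pools and 3304, 3085, 4054 and 1928 in adipose pools, against 2093, 2916, 905 and 1202 in thymus pools. Arch pool 4 lay below thymus pool 2 and the other arch pools above all of thymus. The change was 1.29 ± 0.39 in arch (limma adjusted p = 0.0556) and 0.89 ± 0.39 in adipose tissue (limma adjusted p = 0.346). DESeq2 called it in arch.

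Its alternative Vps26b differed by 0.67 ± 0.84 in arch and 0.25 ± 0.84 in adipose tissue. Vps35, the scaffold, differed by 0.07 ± 0.40 and 0.52 ± 0.40, and Vps29 by -0.47 ± 0.45 and -0.86 ± 0.45 (limma adjusted p of 0.457 or more for these 3 genes). The sum of the 4 retromer genes was 12250 ± 2549 normalised reads in arch and 11706 ± 1865 in adipose tissue, against 10312 ± 2062 in thymus (SD, n = 4). Snx3, which guides retromer to early endosomes, had the highest level per kilobase of all members in each tissue, at 7463 ± 1325 in arch and 6113 ± 1301 in adipose tissue, against 5559 ± 2067 in thymus (SD, n = 4). Its changes were 0.50 ± 0.27 and 0.20 ± 0.27 (limma adjusted p = 0.293 and 0.855).

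Snx27 and Snx17 belong to the FERM sorting nexins, which read sequence signals in the tails of cargo. Snx27 had 454, 310, 427 and 631 normalised reads in arch pools, against 1165, 909, 942 and 1095 in adipose pools, and thymus pools held 473 to 1009. Arch and adipose pools did not overlap. The change between them was -1.17 ± 0.58, which limma did not call (adjusted p = 0.484), whereas DESeq2 did. Snx17 differed by -0.94 ± 0.60 in arch and -0.19 ± 0.60 in adipose tissue (limma adjusted p = 0.370 and 0.949). The 3 tested PXA and RGS sorting nexins, Snx13, Snx14 and Snx19, and the 7 other sorting nexins tested were not called in any comparison. Their changes ran from -2.67 to 2.04 in arch and from -1.54 to 1.38 in adipose tissue.

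HOPS and CORVET tether late and early endosomes and share a core of Vps11, Vps16, Vps18 and Vps33a. Of their 7 genes tested, limma, edgeR and DESeq2 called 0 in each comparison. Limma called 6.57%, 2.84% and 0.176% of all genes in these. At an unadjusted p under 0.05 there were 2 in arch against thymus (22.7% of all genes) and 0 in adipose tissue against thymus (12.8% of all genes). There were 3 in arch against adipose tissue (10.5% of all genes). The last were Vps33a, Vps8 and Vps41, a HOPS subunit with a change of -1.12 ± 0.46 (limma adjusted p = 0.424). Vps33a, which binds SNAREs, had 0, 194, 913 and 0 normalised reads in arch pools and 2444, 640, 1302 and 810 in adipose pools, against 1605, 806, 567 and 1812 in thymus pools. Arch pools 1 and 4 had no read, arch pool 3 lay inside the thymus range, and adipose and thymus pools overlapped. The change was -3.54 ± 1.07 in arch against thymus (limma adjusted p = 0.0535) and -3.61 ± 1.07 in arch against adipose tissue (limma adjusted p = 0.302).

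Vps33b, its paralogue in the CHEVI complex, had 328, 0, 1467 and 110 normalised reads in arch pools and 1214, 2106, 2470 and 2328 in adipose pools, against 1581, 1646, 1623 and 1284 in thymus pools. Arch pool 3 lay within the thymus range and the other arch pools far below it. The change was -3.01 ± 0.91 in arch against thymus and -3.37 ± 0.91 in arch against adipose tissue (limma adjusted p = 0.0532 and 0.250), and 0.36 ± 0.91 in adipose tissue against thymus (limma adjusted p = 0.935).

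Vps8, a CORVET subunit, had 0, 0, 147 and 0 normalised reads in arch pools, against 226, 683, 295 and 178 in adipose pools. The pools did not overlap, and the change was -3.25 ± 1.18 (limma adjusted p = 0.387). In thymus Vps8 had 493, 385, 342 and 0.825. Over all tested members, 4, 9, 0 and 11 had no read in arch pools 1 to 4, against 0 to 5 in adipose pools and 0 to 7 in thymus pools. In arch pool 4 these were 18.6% of the tested members, where 16.2% of all tested genes had no read, and in arch pool 2 they were 15.3%, where 14.3% of all tested genes had none.

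GARP tethers vesicles from endosomes to the Golgi. Vps53, a subunit that GARP shares with the recycling complex EARP, lies at chr11:76046226-76179647 on the minus strand. It had 719, 0, 337 and 0 normalised reads in arch pools and 1052, 1884, 727 and 549 in adipose pools, against 1733, 1372, 1414 and 1345 in thymus pools. All arch pools lay below all thymus pools, arch pools 2 and 4 had no read, and the thymus pools lay close together.

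Vps53 fell by 3.87 in arch (SE 1.03, limma adjusted p = 0.0288), and differed by -0.62 ± 1.03 in adipose tissue (limma adjusted p = 0.888). Arch against adipose tissue gave -3.25 ± 1.03 (limma adjusted p = 0.340). The call held in 12 of 22 alternatives, again with the fits without 1 adipose pool among them. It was lost in the same kinds of setting as that of Chmp1a, with changes of -4.87 to -1.54. Vps52 and Vps54, the other GARP subunits tested, differed by -0.53 ± 0.57 and -0.54 ± 0.99 in arch (limma adjusted p = 0.624 and 0.793). Vps53 overlaps Glod4 on the same strand, whose change of -1.02 ± 0.45 was not called (limma adjusted p = 0.182).

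The 4 VPS13 genes, whose products carry lipids between membranes, were not called. Their changes ran from -1.79 to 2.41 in arch and from -1.42 to 1.56 in adipose tissue. Vps45, which binds SNAREs of early endosomes, and Vps72, a chromatin remodelling subunit that shares only the prefix, were not called either. Vps72 differed by -1.10 ± 0.62 in arch (limma adjusted p = 0.313).

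Members with higher levels varied less between pools of the same tissue. The 16 tested members with a mean under 500 normalised reads had a median SD between pools of the same tissue of 1.81 on the log2 scale, and limma called 0 of them (DESeq2 called Snx30). The 20 with a mean of 500 to 2000 had a median SD of 1.29, and Vps53 and Chmp1a were among them. The 23 over 2000 had a median SD of 0.615. Snx18 and Vps37b were among them with SDs of 1.13 and 0.699, of which that of Snx18 was the highest of the 23, and its mean in thymus was 124. All tested genes in these ranges had median SDs of 1.69, 1.02 and 0.468.

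**Figure D4:**
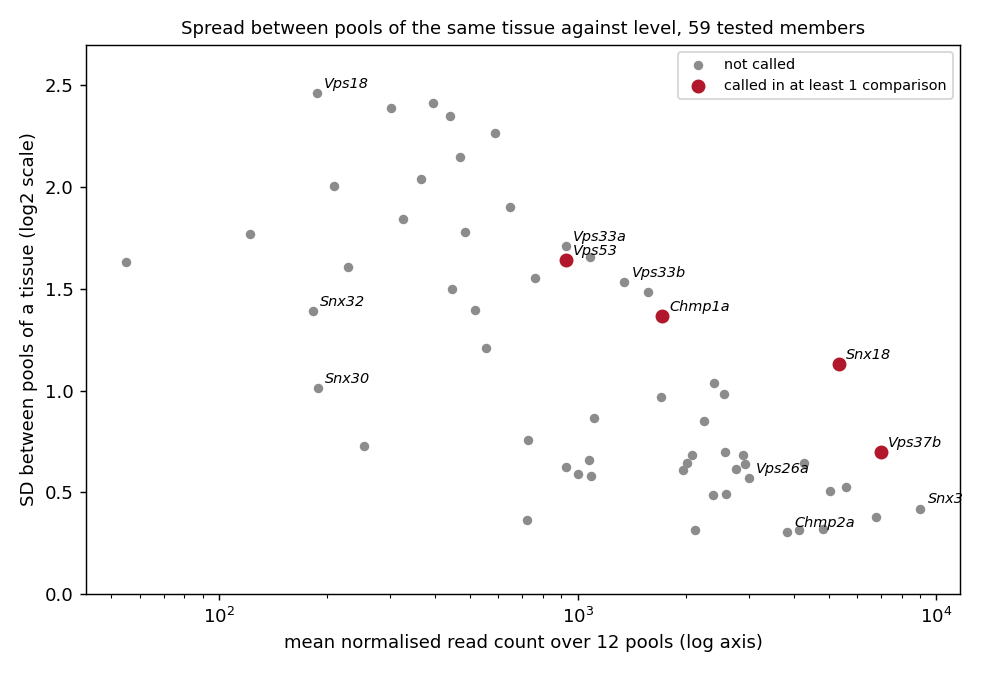
SD between pools of the same tissue (log2 scale) against the mean normalised read count over 12 pools (log axis) for the 59 tested members, called members in red. The spread shrinks with level, from a median of 1.81 below 500 to 0.615 above 2000, and Vps53 and Chmp1a sit among the variable members.

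The genes around the members were counted from a list of 103 endosomal and lysosomal genes, of which 79 were tested. In arch against thymus limma called 3 higher and 1 lower (5.06%, against 6.57% of all genes), and in each of the other comparisons it called 0 (against 2.84% and 0.176% of all genes). At an unadjusted p under 0.05 there were 15 of 79 in arch against thymus, 8 in adipose tissue against thymus and 9 in arch against adipose tissue, beside 22.7%, 12.8% and 10.5% of all genes. In arch against thymus edgeR called 2 (Gla and Rab11b) and DESeq2 4 (Gla, Rab11b, Ctsl and Rab9). In the other comparisons edgeR called 0 in each and DESeq2 called 3 (Gla, Rab11b and Ctsd) and 2 (Gla and Rab9). Gla, the lysosomal alpha-galactosidase, had 1768, 1358, 2963 and 5219 normalised reads in arch pools and 639, 601, 214 and 287 in adipose pools, against 11.9, 23.2, 26.2 and 174 in thymus pools. Thymus pools 1 to 3 lay below the level required for testing, so Gla too entered the test through the other tissues. It rose by 5.39 ± 0.85 in arch and stayed called in 22 of 22 alternatives. The change of 2.80 ± 0.85 in adipose tissue was not called (limma adjusted p = 0.0963).

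Rab11b, a GTPase of recycling endosomes, rose by 0.74 ± 0.20 in arch (limma adjusted p = 0.0288), a call that 13 of 22 alternatives kept, and Ctsl, a lysosomal protease, by 0.79 ± 0.23 (limma adjusted p = 0.0473), which 7 of 22 kept. Ccdc53, a subunit of the WASH complex that builds actin on retromer tubules, had 510, 0, 711 and 0 normalised reads in arch pools, against 1405, 3241, 2518 and 2160 in thymus pools. It fell by 4.34 in arch (SE 1.03, limma adjusted p = 0.0152) and stayed called in 18 of 22 alternatives, with changes of -5.34 to -1.80. The call was lost with edgeR, with DESeq2, without thymus pool 2 and without the 3 columns of lowest depth per library. Arch pools 2 and 4 had no read of it, as for Vps53. Limma called none of the 11 ESCRT partners, the 13 enzymes of endosomal phosphoinositides and the other genes of the Rab, WASH and lysosomal lists.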

How the data were processed

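The authors deposited 1 table of 13765 genes and 12 columns. Its values are a normalised signal, read counts divided by a size factor per column, and all 120369 values above 0 came out as whole multiples of 1 read within 0.01. Per the submitters' processing notes, FastQC 0.11.5, STAR 2.6.0c and GRCm38 were used; the counting tool, the annotation and the use of strand were not stated in any source used. The libraries of a pool were combined before deposit, and the pool was the replicate, so p-values measure the spread between pools.

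The deposited signal was tested with limma 3.58.1 (R 4.3.3, intensity trend) on log2(normalised read count + 20). The filter kept the 9106 genes that reached 100 in 4 or more columns, 1 fit took all 12 columns with tissue as the only term, and p-values were Benjamini-Hochberg adjusted over all genes. edgeR 4.0.16 (quasi-likelihood, TMM) and DESeq2 1.42.0 on recovered reads, other scalings, pseudocounts of 5 and 50, no filter, a replicate block, each pool left out, the first pool of each tissue left out and the 3 columns of lowest depth per library left out were alternatives, 22 in all. Leaving out a pool of the third tissue does not alter a change, only its error and p-value. The scripts were tested on simulated data. Levels per kilobase use union exon length in GENCODE M21, which counts every annotated isoform, and CPM are recovered reads scaled to the column total. Intervals are not given for single values; pools set the error.

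Members, lists and motifs were chosen with earlier results of these data known. Called members were named with every pool's value; other members were named by role, and values by pool for members near the threshold and for paralogues were added after the values were seen. Companion genes were named where called.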

Additional observations from a re-analysis of the deposited data

Results flagged for a closer look

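Among 16 members in 3 tissues (48 groups of 4 pools), 6 groups had 1 pool far from the other 3. The cutoff flags about 1 in 20 groups where values are normally distributed. Every flagged group held at least 1 pool at 0, so the number of flags cannot be set against that rate. Arch pool 1 stood above the other arch pools for 3 members: Snx32 at 187 normalised reads (the next at 4.85), Vps37c at 1093 (the next at 167) and Snx33 at 368 (the next at 4.66). Vps8 had 147 in arch pool 3 and 0 in the other arch pools. In adipose tissue, Snx32 had 134 in pool 4 (the next at 8.72), and Vps37c had 0 in pool 2, which is 1 library (the next at 774). Limma with all 12 pools called none of these members (Snx32, Snx33, Vps37c and Vps8) in any comparison.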

How the results depend on the processing

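Of 264 refits of the 4 called members over the 3 comparisons, 244 kept direction and side of the threshold, 20 lost a call and 0 changed sign. Many of the 264 had no call to lose, since the main fit did not call the member in that comparison. The 20 were Vps53 and Chmp1a in arch against thymus, where each kept its call in 12 of 22 alternatives. The number of members called there, 4, was 2 with edgeR, without the filter and without the 3 columns of lowest depth per library, and 7 with DESeq2, column total scaling and a pseudocount of 50. The number of all genes called there moved too. It was 598 in the main fit, 365 with edgeR, 421 without the filter and 308 without the 3 columns. It was 1270 with DESeq2, 639 with column total scaling and 672 with a pseudocount of 50. Leaving out 1 pool at a time gave 2 to 6 calls in arch against thymus, 2 to 3 in adipose tissue against thymus and 0 to 1 in arch against adipose tissue (1 without arch pool 3, Vps33b), and DESeq2 gave 1 in the last. The cause of these differences was not tested. Column total scaling moved the median of all genes in arch against thymus by -0.14. Same-numbered pools correlated at -0.0316 to 0.0756 and pools of other numbers at -0.0876 to 0.0731. Of 12 pools, 5 matched best with their own number. Correlations this weak cannot decide whether pool numbers pair the samples. With the replicate block the calls were 6, 2 and 0. Members under 500 normalised reads had the largest median spread between pools, and the part of depth in it was not tested.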
